A study of Pseudopodoces humilis with 2 samples.

Results

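Long introns were defined here as gaps of 20000 bases or more between consecutive exon rows of an assembled transcript, counted once by scaffold, both ends and strand. The 3 transcript assemblies of the ground tit (Pseudopodoces humilis), a ground-dwelling songbird, gave 3939 such introns among 153810 unique introns, a share of 2.56%. The other 149871 introns were shorter, and 5190 of these, called intermediate below, had 10000 bases or more. The assemblies came from total RNA of liver, with 1 assembly, and of muscle, with 2 assemblies called muscle-2 and muscle-3, and there was 1 sample per tissue. The labels give no treatment, age, sex or number of birds, and they do not say how muscle-2 and muscle-3 differ, so these were not treated as replicates. The deposited files pair no gene ID with a name, so the tissues were not checked against marker genes and no gene is named below.

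Introns are the stretches of a transcript that the spliceosome removes, and each one is marked by a donor end upstream and an acceptor end downstream. In vertebrates the first intron is often the longest of a gene, and long introns are known to hold regulatory elements and to lengthen the time needed to transcribe a gene. Genes with very long introns are known in muscle, where the gene of dystrophin, which ties the cytoskeleton to the membrane, is a classic example. Bird genomes are compact, and their introns are on the whole shorter than those of mammals. An intron of an assembly rests on reads aligned across the splice junction, so it can be seen only where the gene was transcribed deeply enough in that sample. The liver assembly held 107293 introns in 17536 spliced transcripts, muscle-2 held 132166 in 21109 and muscle-3 held 123396 in 19743. The total reads behind the gene table, recovered from its values, were 46313678 for liver and, if the muscle column is a mean of 2 libraries, 86472618 and 47542891 for these, and nothing ties those libraries to muscle-2 or muscle-3.

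Long introns were few but took up much of the intron sequence. They summed to 163.9 Mb, which was 36.8% of all intron bases, while the shorter introns summed to 281.0 Mb. The median long intron had 31892 bases, with quartiles at 24983 and 46874, against a median of 830 bases for the shorter introns, with quartiles at 369 and 1893. The liver assembly held 2033 long introns (1.89% of its introns), muscle-2 held 3095 (2.34%) and muscle-3 held 2795 (2.27%). Their median lengths were close to each other, at 31583 bases in liver, 31975 in muscle-2 and 32089 in muscle-3. Of the long introns, 2208 reached 30000 bases, 844 reached 50000, 167 reached 100000 (4.24%) and 21 reached 200000.

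**Figure D1:**
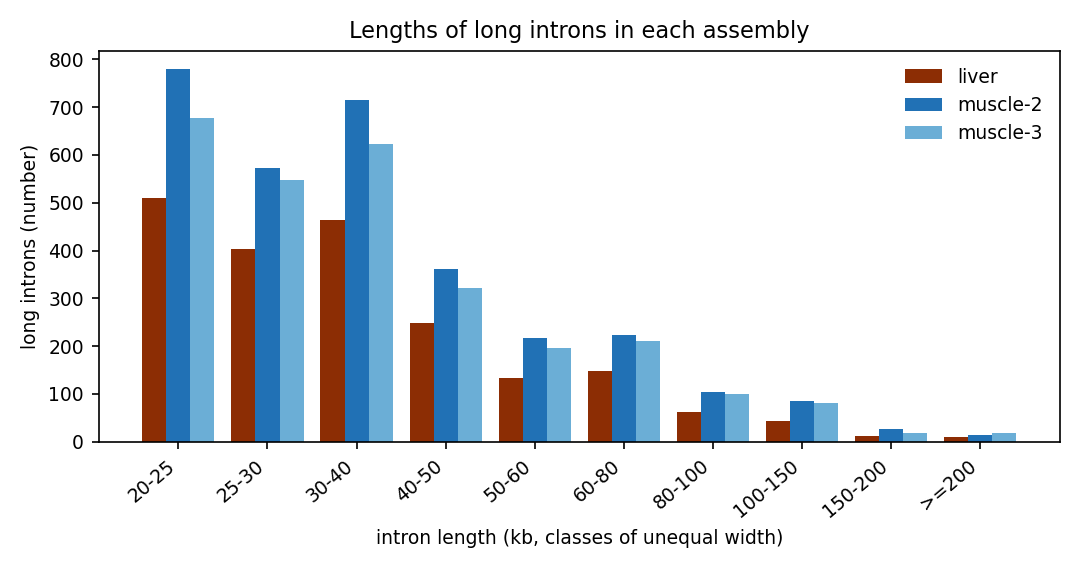
Number of long introns (y axis) in each class of length in kilobases (x axis, classes of unequal width) for liver, muscle-2 and muscle-3. The liver assembly had fewer than either muscle assembly in every class, with 509 in liver against 779 in muscle-2 and 678 in muscle-3 in the shortest class, and 9 against 14 and 18 in the class of 200000 bases or more.

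At the threshold itself lengths ran on without a gap. The shortest members had 20001 bases (scaffold 6564, positions 1321809 to 1341809), 20019 bases (scaffold 23042, 1891431 to 1911449) and 20026 bases (scaffold 18286, 1480482 to 1500507). The introns just outside had 19996 bases (scaffold 10144, 832509 to 852504), 19991 bases (scaffold 22781, 525848 to 545838) and 19969 bases (scaffold 21028, 387269 to 407237). All coordinates are 1-based scaffold positions, as the files give them, of a genome build that is not given in the sources used here.

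Long introns occurred on 710 of the 2529 scaffolds that held any intron. These scaffolds also carried 85.8% of the shorter introns. A scaffold with long introns held 4 of them in the median and at most 30, on scaffold 22880, and 139 scaffolds held 50% of the members. Many members were variants of one another. Merged where they overlapped on the same strand, the 3939 long introns formed 3101 regions that covered 133.0 Mb, and they used 3675 donor ends and 3400 acceptor ends. By strand, 52.6% of the long introns and 49.6% of the shorter ones lay on the plus strand.

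The longest intron of both muscle assemblies was the same one, with 406699 bases on the plus strand of scaffold 5962, positions 798469 to 1205167. It was the first of 9 introns of its transcript, between exons of 366 and 150 bases. In muscle-2 it was held by 2 transcripts and in muscle-3 by 1, and the liver assembly had 0. The longest liver intron had 364177 bases on the minus strand of scaffold 17601, positions 918791 to 1282967, and it was found with the same ends in both muscle assemblies. Here the position was the opposite one, the last of 8 introns, before a closing exon of 1254 bases.

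The next longest introns found in all 3 assemblies all lay in the middle of their transcripts. On scaffold 12917 an intron of 256425 bases (minus strand, 522839 to 779263) was the fifth of 11. An intron of 254389 bases on scaffold 22742 (plus strand, 253523 to 507911) was the third of 7. Their neighbours in length were an intron of 237191 bases on scaffold 22787 (plus strand, 1701104 to 1938294), which was number 5 of 18, and one of 221777 bases on scaffold 14394 (minus strand, 283033 to 504809), number 21 of 22. The exons around these 4 introns measured between 68 and 224 bases. As assembled, each of these introns thus lay between short exons over 200000 bases apart, with the same ends in liver and muscle. No genome sequence was used, so the splice sites of these introns were not checked.

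Long introns were found at the 5′ end of transcripts more often than shorter ones. Position was taken by strand in the transcript with the most introns among those that held the intron. By that rule 39.5% of the long introns (1554 of 3939, Wilson 95% interval 37.9 to 41.0) were first introns, against 12.7% (12.5 to 12.9) of the shorter introns. Middle introns made up 49.3% of the long and 74.5% of the shorter introns. Last introns were 8.10% and 10.5%, and introns of transcripts with no other intron 3.15% and 2.32%. Introns of 1 transcript share their source and are not replicates, and without molecular identifiers several reads may stem from 1 molecule, so the intervals here and below cover counting error only and no test was made.

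Seen from the other side, 7.55% of all first introns (7.197 to 7.919) were long, as were 1.71% (1.64 to 1.79) of middle and 1.99% (1.78 to 2.21) of last introns. First introns as a whole were longer, with a median of 1504 bases against 812 for middle and 858 for last introns. Among the long ones this order was absent, since the median long first intron had 31590.5 bases, the median long middle intron 32547.5 and the median long last intron 30352. The intermediate introns lay between, with 33.0% first introns (31.7 to 34.3). Position was the same in every transcript that held the intron for 3632 of the long introns (92.2%).

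The excess at the 5′ end reached past the first intron. In transcripts of 10 or more introns, 9.83% of the introns numbered 1 from the 5′ end were long (9.22 to 10.5), 5.86% of those numbered 2 (5.28 to 6.51), 3.84% of those numbered 3 (3.37 to 4.39) and 2.17% of those numbered 4 (1.82 to 2.60). From number 5 to number 9, the last one counted, the share lay between 0.867% and 1.62%. Counted from the 3′ end, the first 9 introns held between 0.765% and 1.74% long ones, with no comparable slope. Of the 2184 long introns in such transcripts 1375 (63.0%) were number 1 to 3, against 18.0% of the 101512 shorter introns. An assembled transcript may lack its true 5′ exons, and a number counted in it is then too low.

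**Figure D2:**
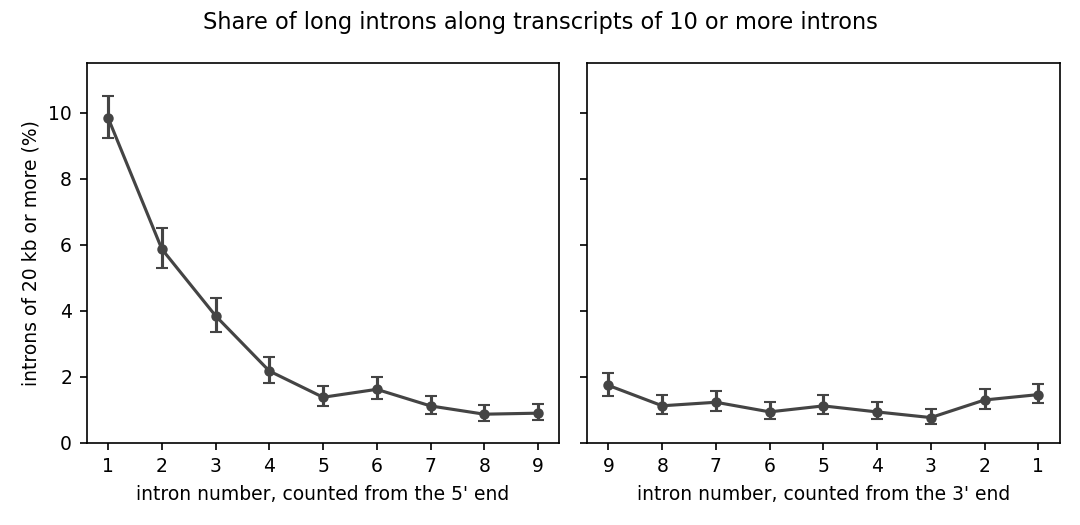
Share of introns of 20000 bases or more in percent (y axis) by intron number from the 5′ end (left) and from the 3′ end (right), over transcripts of 10 or more introns in all 3 assemblies, with Wilson 95% intervals as bars. The share fell along the first introns, with 9.83% at number 1 and 2.17% at number 4, and stayed at 1.74% or below over the 9 introns nearest the 3′ end.

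Long introns occurred together in the same transcripts. In liver 1890 transcripts held at least 1 long intron (10.8% of spliced transcripts), in muscle-2 2745 (13.0%) and in muscle-3 2503 (12.7%). Of these, 556 in liver (29.4%), 871 in muscle-2 (31.7%) and 792 in muscle-3 (31.6%) held several, so that 51.9%, 54.1% and 53.7% of the long introns of liver, muscle-2 and muscle-3 stood in a transcript with another long one. In 66.5%, 65.1% and 64.3% of the transcripts with several, at least 2 long introns followed each other directly. Transcripts of 1 locus can share introns. Loci of overlapping transcripts on 1 strand that held several, in the same or in different transcripts, numbered 429 in liver, 721 in muscle-2 and 654 in muscle-3. Transcripts with 5 or more long introns numbered 46 in liver, 72 in muscle-2 and 58 in muscle-3, and the most in any transcript was 8 in liver and 9 in either muscle assembly.

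Neighbouring introns were correspondingly long. Over unique pairs of consecutive introns, the intron that followed a long one was itself long in 824 of 3785 cases (21.8%, 20.5 to 23.1), against 1.34% (1.28 to 1.40) after a shorter intron. The median length of the following intron was 6510 bases after a long intron and 810 bases after a shorter one. The intron before a long one was long in 30.4% of cases (28.7 to 32.1), against 2.08% (2.01 to 2.16) before a shorter intron.

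In liver 8 transcripts on 4 scaffolds tied at the highest count of 8 long introns, in muscle-2 1 transcript had 9 and 6 had 8, and in muscle-3 3 had 9 and 5 had 8. The 3 of each assembly described here were taken by count and, among ties, by the summed length of their long introns, and they came from 3 scaffolds. On the minus strand of scaffold 22264 the 3 liver transcripts so chosen ran from position 986071 to 1656469, with 17 or 18 exons and 8 long introns each. In the one with the top Cufflinks score of 1000, which marks the most abundant transcript of a locus, 4996 spliced bases were spread over a span of 670399 bases, and long introns made up 90.2% of that span. Its long introns had, from the 5′ end, 77599, 147124, 39330, 24267, 125191, 89315, 25861 and 76160 bases. The last 4 of these followed each other directly, as introns 12 to 15 of 16. All 8 were in liver and in muscle-2, and 7 were in muscle-3, where the intron of 147124 bases was not found. In muscle-2 the 2 of the 6 transcripts with 8 long introns that had the largest sum were also of this locus, with a 3′ end at position 983596, against 986071 in liver.

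On scaffold 13182, minus strand, a transcript with 9 long introns was found in both muscle assemblies. It spanned 428035 bases in muscle-2 (782232 to 1210266) and 427902 bases in muscle-3 (782437 to 1210338), with 14 exons in each. Its first 8 introns were all long, with 85095, 68173, 28916, 24751, 41633, 49790, 48228 and 28619 bases, and another of 20297 bases was number 10. The liver assembly held 5 of the 9, and the 4 that it lacked were those numbered 1 to 4. All introns numbered 5 or higher, the shorter ones included, were in all 3 assemblies.

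The third locus, on the minus strand of scaffold 22790 (1209048 to 1546429), had in muscle-3 2 transcripts of 9 long introns each. The one with a score of 1000 had 13 exons and 16881 spliced bases in a span of 337382 bases, of which long introns took 87.8%. Its long introns were even in size, from 24025 to 45112 bases. Muscle-3 held all 9, and liver and muscle-2 each held 8. The one they lacked was the first intron, of 27248 bases.

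**Figure D3:**
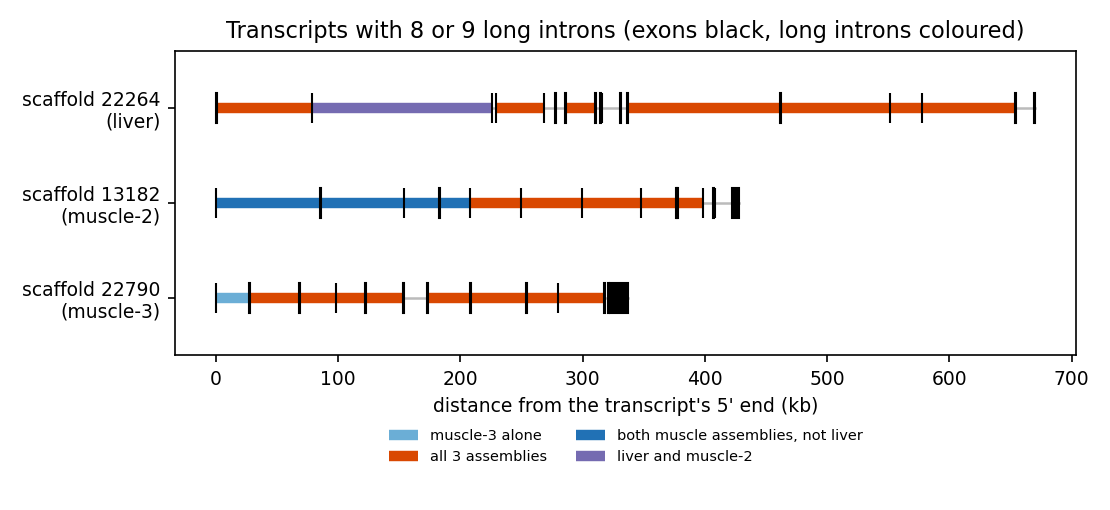
One transcript with 8 or 9 long introns from each of scaffolds 22264, 13182 and 22790, drawn to scale by distance from its 5′ end in kilobases (x axis). Exons are black, drawn at a minimum width so that they can be seen, and long introns are coloured by the assemblies that hold them. On scaffold 13182 the first 4 introns were found in both muscle assemblies and not in liver, while on scaffold 22264 only the intron of 147124 bases was missing from 1 assembly.

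Transcripts with a long intron were larger in every respect measured. In liver they had a median of 11 exons, 3775.5 spliced bases and a span of 77.6 kb, against 7 exons, 2156 bases and 10.3 kb for the other spliced transcripts. In muscle-2 these medians were 11 exons, 4148 bases and 82.5 kb against 7 exons, 2204 bases and 10.2 kb, and in muscle-3 12 exons, 4107 bases and 82.8 kb against 7 exons, 2135 bases and 10.1 kb. The span is partly fixed by the definition of a long intron, while exon number and spliced length are not. A transcript with more introns has more chances to hold a long one, which the comparison does not remove. The exons beside a long middle intron were of ordinary size. Their median was 122 bases upstream (quartiles 85 and 175) and 124 bases downstream (89 and 174), against 122 (89 and 164) and 123 (90 and 164) beside shorter middle introns.

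A smaller share of long than of shorter introns was found in all 3 assemblies. The same ends were found in liver, muscle-2 and muscle-3 for 1489 long introns (37.8%, 36.3 to 39.3), against 58.6% (58.4 to 58.9) of the shorter introns and 58.1% of all introns. Both muscle assemblies without liver held 786 long introns (19.95%, 18.7 to 21.2), against 13.8% (13.7 to 14.0) of the shorter ones and 14.0% of all. Liver alone held 324 (8.23%, 7.41 to 9.12), against 5.86% (5.74 to 5.98) and 5.92% of all. Muscle-2 alone held 697 (17.7%), against 10.7% of the shorter, and muscle-3 alone 423 (10.7%), against 5.24%. For the intermediate introns these shares were 42.3% in all 3 assemblies, 15.8% in both muscle assemblies without liver and 8.90% in liver alone. They were 15.7% in muscle-2 alone and 10.8% in muscle-3 alone. In sum 36.7% of the long introns (35.2 to 38.2) rested on 1 assembly, as did 21.8% (21.6 to 22.0) of the shorter introns. The intermediate introns were close to the long ones here, with 35.5% (34.2 to 36.8), so this was not a trait of long introns alone.

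**Figure D4:**
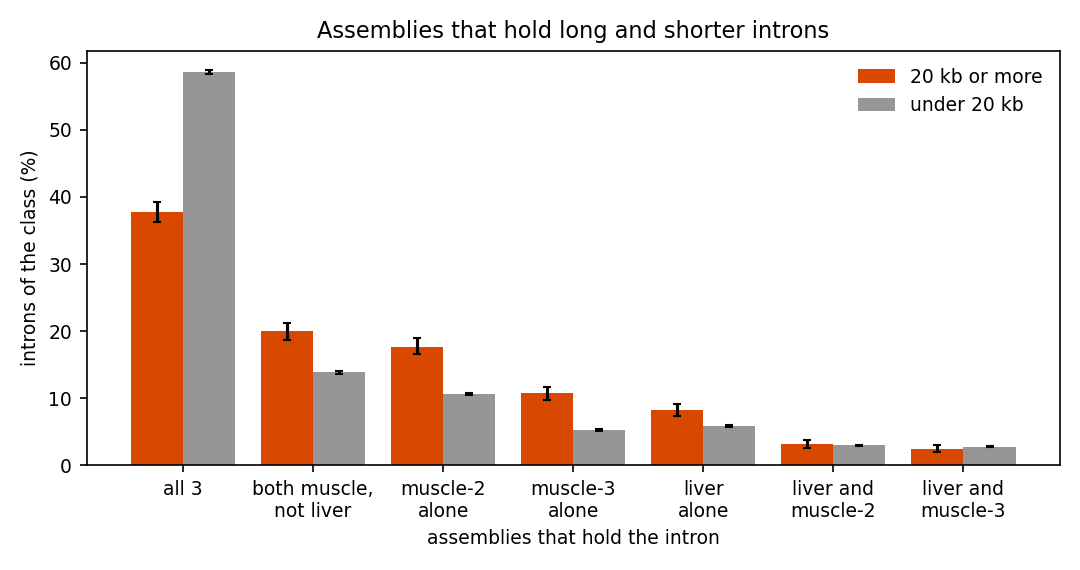
Share of introns in percent (y axis) by the set of assemblies that hold them (x axis), for introns of 20000 bases or more and for shorter introns, with Wilson 95% intervals. The share in all 3 assemblies was 37.8% for long and 58.6% for shorter introns, and the long introns had the larger share in each class of 1 assembly and in the class of both muscle assemblies without liver.

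The liver assembly was the one in which long introns were most often missing. It held 51.6% of them (50.1 to 53.2) and 70.2% (70.0 to 70.5) of the shorter introns, whereas muscle-2 held 78.6% (77.3 to 79.8) and 86.1% (85.9 to 86.3), and muscle-3 held 71.0% (69.5 to 72.4) and 80.5% (80.3 to 80.7). Found in muscle and not in liver were 1906 long introns (48.4%, 46.8 to 49.9), against 29.8% (29.54 to 29.998) of the shorter introns and 30.2% of all introns. Of the 2033 liver long introns 84.1% (82.4 to 85.6) were also in muscle, against 91.7% (91.5 to 91.8) of shorter liver introns. Of the 3615 muscle long introns 47.3% (45.7 to 48.9) were also in liver, against 68.4% (68.1 to 68.6) of shorter muscle introns. Muscle here pools 2 assemblies against 1 of liver, so these shares are not like for like. Taken singly, 52.1% of muscle-2 and 56.7% of muscle-3 long introns were in liver, against 71.5% and 76.3% of shorter ones. Of liver long introns, 79.3% were in muscle-2 and 78.0% in muscle-3. Between the muscle assemblies, 73.5% (71.92 to 75.03) of the long introns of muscle-2 were in muscle-3, and 81.4% (79.9 to 82.8) of those of muscle-3 were in muscle-2, against 84.1% and 90.03% of shorter introns. Of the intermediate introns liver held 57.6% (56.2 to 58.9), muscle-2 77.2% and muscle-3 72.1%. Of intermediate liver introns 84.5% (83.2 to 85.8) were in muscle, and of intermediate muscle introns 53.4% (52.0 to 54.9) were in liver. Between the muscle assemblies the intermediate shares were 75.4% and 80.7%. Long introns thus lay below intermediate ones in the shares found in liver, and close to them in the others. With 1 sample per tissue these shares compare assemblies and not the tissues, and the part that depth takes in them was not tested. In bulk tissue fewer cells of a type and less RNA per cell cannot be told apart.

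The share in liver was lower in each longer class, though the intervals from 20000 and from 50000 bases overlapped. It was 71.2% (n = 135809) for introns under 5000 bases, 62.3% from 5000 bases and 57.6% from 10000. From 20000 bases it was 52.5% (50.7 to 54.2) and from 50000 bases 51.0% (47.2 to 54.7). For the 167 introns of 100000 bases or more it was 38.3% (31.3 to 45.9). Muscle-2 changed less, with 86.8% under 5000 bases, 78.4% from 20000, 80.4% from 50000 and 74.9% (67.8 to 80.8) from 100000 bases. Muscle-3 had 81.2%, 70.1%, 74.7% and 71.3% in the same classes. Among the 167 longest introns 49 (29.3%) were in both muscle assemblies and not in liver, 42 (25.1%) were in all 3 and 14 (8.38%) in liver alone.

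**Figure D5:**
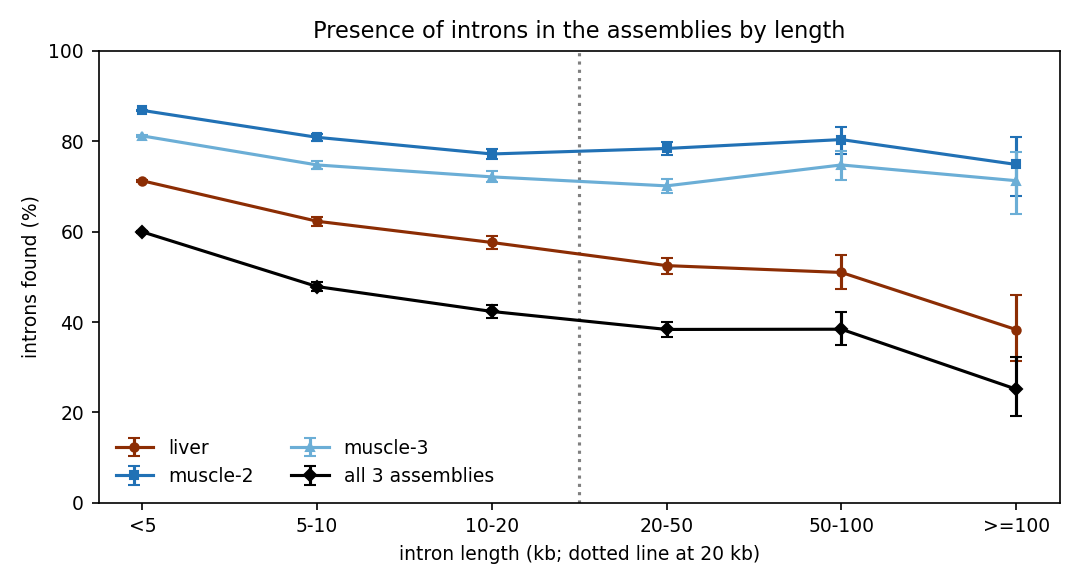
Share of introns found in liver, in muscle-2, in muscle-3 and in all 3 assemblies, in percent (y axis), by length in kilobases (x axis), with Wilson 95% intervals and a dotted line at the threshold for long introns. The liver share fell with each step in length, to 38.3% in the longest class, while muscle-2 and muscle-3 stayed at 74.9% and 71.3% there.

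Position and presence were linked, and the lower presence of long than of all shorter introns was also seen within each position. Of the long first introns 42.4% were in liver, against 49.9% of shorter first introns. Of the long middle introns 60.7% were in liver, against 75.8% of shorter ones, and of the long last introns 50.5% (45.0 to 55.9), against 63.0%. For intermediate introns the liver shares were 49.4% of first, 66.4% of middle and 43.1% (38.7 to 47.5) of last introns. Among last introns the long ones were thus not below the intermediate ones. Long introns in all 3 assemblies were first introns in 26.4% of cases (24.2 to 28.7), those of both muscle assemblies without liver in 38.9% (35.6 to 42.4), and those of liver alone in 51.2% (45.8 to 56.6). For muscle-2 alone and muscle-3 alone the shares were 51.4% (47.7 to 55.1) and 54.6% (49.8 to 59.3). Shorter introns showed the same order at a lower level, with 6.60% first introns in all 3 assemblies and 27.02% in liver alone.

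Most long introns that liver lacked had no liver exon beside them. Of these 1906 introns 1281 (67.2%, 65.1 to 69.3) had neither flanking base in a liver exon of the same strand, 467 (24.5%) had 1 and 158 (8.29%, 7.13 to 9.61) had both. For the shorter introns that liver lacked, 73.7% had neither, 18.5% had 1 and 7.87% had both. For the 786 in both muscle assemblies without liver, neither flanking base was in a liver exon in 82.1% (79.2 to 84.6) and both were in 2.67% (21 introns). For shorter introns of this class these shares were 86.7% and 3.29%. In the other direction, of the 324 long introns in liver alone 35.8% (30.8 to 41.2) had neither flanking base in a muscle exon, 47.8% had 1 and 16.4% had both. For shorter introns in liver alone these shares were 48.0%, 35.2% and 16.8%. Intermediate introns in liver alone had 26.8%, 48.3% and 24.9%. Of the intermediate introns that liver lacked, 63.8% had neither flanking base in a liver exon, 26.5% had 1 and 9.68% had both. Where both flanking bases lay in liver exons, which holds by construction for every intron found in liver, 92.8% of 2191 long introns were found there, against 96.8% of shorter ones. Both shares are raised by this construction and cannot be set against the shares over all introns.

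The ends of long introns were often shared with other introns. The acceptor was also used by another intron for 41.2% of the long introns (39.7 to 42.7), against 14.8% (14.7 to 15.0) of the shorter ones, and the donor for 22.0% (20.7 to 23.3), against 12.5% (12.3 to 12.7). Neither end was shared for 49.9% (48.3 to 51.4) of the long and 76.2% (76.0 to 76.4) of the shorter introns. The acceptor led among long first introns, with 55.1% shared acceptors and 15.9% shared donors, against 43.4% and 14.8% for shorter first introns. Intermediate first introns had 57.8% shared acceptors and 18.0% shared donors. Among long last introns it was the donor that led, with 43.6% against 25.7% for the acceptor. The donor also led among shorter last introns, with 20.2% against 12.1%, and among intermediate last introns, with 35.3% against 27.3%. For 1100 long introns (27.9%) an end was also used by an intron under 20000 bases. For 472 long introns (11.98%, 11.01 to 13.03) both ends were each also used by some intron shorter than itself, which may still be a long one, against 3.09% (3.01 to 3.18) of introns under 20000 bases. The intermediate introns had nearly the values of the long ones, with 39.1% shared acceptors, 22.7% shared donors, 51.2% with neither end shared and 11.85% with both ends in shorter introns, so sharing of ends was not a trait of the long introns alone.

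The acceptor with the most long introns, at position 421974 on the plus strand of scaffold 22833, ended 6 of them, from 23358 to 215445 bases long. Liver held 4 of these 6, muscle-2 held 3 and muscle-3 held 3. Intron sets of this kind join different upstream exons to 1 downstream exon. No donor started more than 3 long introns.

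Sharing of ends was least frequent among the long introns in all 3 assemblies. Neither end was shared for 67.0% of the long introns in all 3 assemblies and for 56.6% of those in both muscle assemblies without liver. The share was 31.8% in liver alone, 37.9% in muscle-2 alone and 20.8% in muscle-3 alone. It was 33.3% in liver and muscle-2 and 27.8% in liver and muscle-3, so it did not rise steadily with the number of assemblies. Shorter introns were not split in this way. Within each assembly the Cufflinks score also set long introns of all 3 assemblies apart from those of that assembly alone. For the score, too, intermediate and shorter introns were not split in this way, so whether the contrast is particular to long introns was not tested. In liver a transcript of score 1000 held 91.8% (90.3 to 93.1) of the long introns in all 3 assemblies and 54.3% (48.9 to 59.7) of those in liver alone. In muscle-2 it held 88.4% (86.7 to 89.97) and, of those in muscle-2 alone, 56.1% (52.4 to 59.7), and in muscle-3 89.1% (87.4 to 90.6) and 39.5% (34.9 to 44.2). Over all its long introns the share was 83.03% in liver, 77.9% in muscle-2 and 78.4% in muscle-3. The intermediate introns of each assembly were close to this, with 82.7%, 78.2% and 79.3%, and all introns under 20000 bases were higher, with 91.05%, 87.4% and 88.6%.

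Few long introns had another assembled transcript inside them. A transcript of the same assembly lay wholly within 192 of the 3939 long introns (4.87%, 4.24 to 5.59). The share was 4.80% for the intermediate introns and 0.735% for all introns under 20000 bases, which offer far less room. Transcripts of 1 exon, which carry no strand, were inside 158 long introns, and spliced transcripts were inside 54 (1.37%, 1.05 to 1.78). The spliced ones were on the strand of the intron in 22 cases and on the opposite strand in 39, with some introns in both counts. In 8 long introns a spliced transcript inside was of the same Cufflinks gene as the intron. In 47 (1.19%) it was of another Cufflinks gene, again with overlap. Per megabase of intron, long introns under 50000 bases held 1.51 transcripts in liver, 1.74 in muscle-2 and 1.36 in muscle-3, against 2.55, 3.35 and 3.39 in intermediate introns and 1.88, 1.90 and 1.73 in introns under 5000 bases. From 50000 bases on the density ran from 0.694 to 1.93 per megabase over the classes and assemblies, with no common order.

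The long intron with the most spliced transcripts inside, chosen after its values were seen, had 241461 bases on the minus strand of scaffold 11930 (644902 to 886362). It was assembled in muscle-3 alone. Inside it lay 11 spliced transcripts of 7 Cufflinks genes, 8 on the same strand and 3 on the opposite one. None of the 5 longest introns found in all 3 assemblies held a spliced transcript.

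The gene table could be set beside long introns, by scaffold alone, for 52 genes, each the only gene listed on a scaffold that held a long intron. Whether the listed gene itself holds these introns was not checked, and an ID such as evm.TU.scaffold19778.3 leaves room for unlisted genes there. Its unit is RPKM, in which read counts are divided by gene length and by library size, and the authors' definition of gene length is not given in the sources used here. These 52 genes had low values, with a median of 0.0293 RPKM in the liver sample (quartiles 0.00411 and 0.189) and 0.0705 RPKM in the muscle sample (0.0175 and 0.427). The 749 genes alone on a scaffold with introns but no long one had a liver median of 0.630 RPKM and a muscle median of 1.78 RPKM. At 1 RPKM or more stood 3 of the 52 genes in liver (5.77%) and 5 in muscle (9.62%), against 41.1% and 63.0% of the 749. A length that counts introns would lower RPKM for genes that hold long introns. The contrast with the 749 genes can therefore not be read as fewer transcripts of the 52 genes. The part of gene length in these values was not tested.

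Of the 52 genes 11 were higher in liver and 41 higher in muscle (78.8%), against 78.8% higher in muscle over all genes and 87.0% over the 749, so the direction was that of the whole table. On the scale of log2(RPKM + 1), liver minus muscle, their median difference was -0.04, against -0.55 for the 749 genes and -0.21 for all 15394 genes of the table, and values this low are compressed by the added 1. On that scale none of the 52 differed 4-fold toward liver, which allows a share of up to 5.77%, and none toward muscle, against 2.29% and 4.49% of all genes. With 1 added, a 4-fold difference needs at least 3 RPKM in 1 tissue, which most of the 52 genes did not reach. Most of them could thus not have passed, and the counts cannot be set against the shares of all genes. With 0.1 added instead, 1 gene passed toward liver and 3 toward muscle. The largest differences toward liver were those of evm.TU.scaffold20659.1, with a liver value of 1.37 RPKM against 0.0424 RPKM in muscle (1.18), and of evm.TU.scaffold22908.1, with 0.351 RPKM in liver against 0.0636 in muscle (0.35). Toward muscle they were those of evm.TU.scaffold6996.1, with a liver value of 0.0634 RPKM against 2.37 RPKM in muscle (-1.66), and of evm.TU.scaffold22547.1, with 0.815 RPKM in liver against 4.09 in muscle (-1.49).

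The median level of these genes differed with the assemblies that held the long introns of their scaffold. An assembled intron needs reads of that sample, so the classes themselves depend on the level and the difference is no separate result. For the 27 genes on scaffolds with long introns in liver and in muscle, the liver median was 0.0848 RPKM and the muscle median 0.244 RPKM. Of these, 23 were higher in muscle. For the 23 genes on scaffolds whose long introns were in muscle alone, the liver median was 0.00499 RPKM and the muscle median 0.0313 RPKM. The highest of the 52 genes in both tissues was among them, with 22.6 RPKM in liver and 44.6 RPKM in muscle. Of the 23 genes, 18 were higher in muscle. Both counts lie near the 78.8% of all genes that were higher in muscle. The 2 genes on scaffolds whose long introns were in liver alone both had the higher value in liver. Over all genes the share higher in liver was 21.2%, and 2 genes are too few to give a share. The 2 were evm.TU.scaffold20659.1, given above, and evm.TU.scaffold9462.1, with 0.0184 RPKM in liver against 0.00899 in muscle. Both are named because so few fell in this class. Gene table and assemblies rest on the same samples, so setting one beside the other is not a replicate check.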

How the data were processed

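Liver and muscle libraries were prepared from total RNA with a TruSeq kit, per the labels. The submitters' processing notes name TopHat, which aligns reads across splice junctions, and the deposited files name Cufflinks, a transcript assembler, as their source. Settings, a limit on intron length, versions, genome build and annotation were not given in the sources used here. Each deposited assembly gives scaffold positions of transcripts and of exons (rows called CDS), and a Cufflinks score, which the authors left in the file and which reaches 1000. The authors deposited expression as RPKM per gene.

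Introns were taken as gaps between sorted exons and matched by scaffold, ends and strand, with Python 3.11.15 and numpy 2.4.6. Figures were drawn with matplotlib 3.10.9. On simulated assemblies all 19185 introns were recovered with their length class, position and assemblies. Shares have Wilson 95% intervals, and a count of 0 allows up to 3. Depth was recovered from the RPKM values as the smallest liver total that makes the rows for no feature, ambiguous and multiply aligned reads whole to within 1e-06, and from the most common ratios of muscle to liver (48 and 30 genes), reading the muscle column as the mean of 2 libraries, which the labels do not state. Those rows held 24.3%, 0.0635% and 2.80% of the liver total, and 30.6%, 0.217% and 4.13% of the muscle total, and were left out. The gene comparison used log2(RPKM + 1) with a rule of 4-fold, without a test, since there was 1 sample per tissue.

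Named introns were the longest of each assembly, the 5 longest in all 3, the 3 transcripts per assembly with the most long introns and 3 introns on each side of the threshold. Genes were the 2 largest differences in each direction. The members and these rules were chosen with earlier results of these data known. Alternatives were other thresholds, ends within 10 bases, flanking exons of at least 25 bases, other definitions of position and presence, and other pseudocounts. Gene lists were not evaluated because the deposited files pair no ID with a name, and no genome sequence was used.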

Additional observations from a re-analysis of the deposited data

How the results depend on the processing

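Among 65 alternatives 27 kept the value within its interval, or the count within 1.5 times. Some of the 27 could not have moved. The limit to scaffolds with a long intron keeps every long intron. A count of 0 genes past 4-fold stays 0 with a pseudocount of 5 or in a subset of the genes. The share of intron bases and the median gene difference had no interval, so any change in them was counted as a move. A share or count cannot change sign, so only the median gene difference could have reversed. Another pseudocount cannot change the sign of a gene's difference or of this median. This leaves only the limit to genes at 1 RPKM or more, which did not reverse it. All 8 alternatives for position left the long introns with the larger share of first introns, and all 23 for presence left them with the smaller share found. For other thresholds, 10000 bases gave 9129 introns, 53.1% of intron bases, 35.8% first introns, 55.0% in liver, and 1556, 2222 and 2007 transcripts with several in liver, muscle-2 and muscle-3. At 50000 bases these were 844 introns, 15.7%, 36.3%, 48.5%, and 96, 146 and 123 transcripts, with 76.7% of muscle-2 introns in muscle-3 and 5.69% holding a transcript. Introns in 2 or more assemblies numbered 2495, with 33.8% of intron bases and 32.02% first introns. Flanking exons of at least 25 bases gave 37.2% of intron bases. Counting an intron as first where any transcript had it first gave 44.6%. With both ends in exons of the other assembly, 92.8% were in liver, 97.0% of liver introns were in muscle and 94.8% of muscle-2 introns were in muscle-3. Against muscle-2 or muscle-3 alone, 79.3% and 78.0% of liver introns were found. Of the long introns 1.37% held a spliced transcript, 0.559% a transcript on the same strand and 7.54% a transcript of any assembly. The median gene difference was -0.33 with a pseudocount of 0.1, -0.00828 with 5, and -0.95 for the 6 genes at 1 RPKM or more. A pseudocount of 0.1 put 1 gene past 4-fold in liver and 3 in muscle. Taking only the longest intron of each overlap region, an alternative added after the data were seen, gave 36.2% first introns, 54.3% in liver, 87.5% of liver introns in muscle and 76.8% of muscle-2 introns in muscle-3. Shorter introns on scaffolds with long ones, also added then, left the long introns with more first introns (39.5% against 12.3%) and less often in liver (51.6% against 70.9%). The cause of these shifts was not tested.

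No paired analysis was possible because there was 1 sample per tissue. An intron that an assembly lacks is not shown to be absent from the tissue, and why it is lacking was not tested.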
